A study of Mus musculus with 9 samples.

Results

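Heme degradation and iron recycling in fetal liver (FL) macrophages was followed through 10 genes named for this purpose: *Slc48a1*, *Hmox1*, *Blvra*, *Bach1*, *Slc11a1*, *Slc40a1*, *Fth1*, *Ftl1*, *Ncoa4* and *Flvcr1*. Each was found by its Ensembl identifier, and all 10 of 10 have a row among the 13708 genes of the deposited table. Bulk RNA-seq, in which 1 library holds the mRNA of all cells of a sort, was performed on 5 Mrc1Cre Xpr1fl/fl and 4 Xpr1fl/fl samples of CD45+ F4/80hi CD11blow cells from E15.5 mouse livers. The comparison asks how the genes of a differentiated FL macrophage depend on XPR1, a phosphate exporter of the plasma membrane. In both groups *loxP* sites flank exon 2 of *Xpr1* on both alleles. Only Mrc1Cre Xpr1fl/fl embryos carry Cre, in a construct with an internal ribosomal entry site, iCre, a 2A peptide and eYFP that was inserted into exon 30 of *Mrc1*, the gene for CD206, so Cre follows *Mrc1* expression. Liver sinusoidal endothelial cells also express CD206, so deletion was not restricted to macrophages. The mice were on a C57BL/6JRj background. The sorting gate did not use Tim4, so that macrophages of differing Tim4 level were sequenced together.

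FL macrophages sit at the center of erythroblastic islands, where they engulf expelled nuclei and damaged erythroid cells and thereby take up hemoglobin. Heme that is freed in the phagolysosome crosses its membrane, is opened by heme oxygenase to biliverdin, carbon monoxide and iron, and the iron is either stored in ferritin or returned to the plasma through ferroportin. Heme itself releases the repressor BACH1 from the regulatory elements of several of these genes, and iron regulatory proteins control the translation of ferritin mRNA, so that transcript levels need not follow protein levels.

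*Xpr1* was at 1073.7 to 1285.3 normalized counts in Mrc1Cre Xpr1fl/fl samples and 1780.9 to 2239.2 in controls, and fell by 0.77 on the log2 scale (standard error [SE] 0.08, limma adjusted p = 4.13e-05). Normalized counts are gene counts that the authors divided by DESeq2 normalization factors. Macrophage genes (*Adgre1*, *Csf1r*, *Cd68* and 5 others) summed to 233464.3 to 254199.4 in Mrc1Cre Xpr1fl/fl samples and 241147.1 to 291822.3 in controls, with 2 of 8 lower and none higher. Of 7 Kupffer cell genes 6 were lower, among them *Mrc1* at −1.72, which carries the Cre insertion itself. Transcripts of other cells were also lower in Mrc1Cre Xpr1fl/fl samples. All 14 erythroid genes were lower, with a median log2 fold change of −1.84. Their sum was 403009.8 to 646118.6 in controls and 92066.5 to 156397.6 in Mrc1Cre Xpr1fl/fl samples 1 to 4, and 306585.2 in sample 5. None of the 14 was at 0. All 8 hepatocyte genes (sum 15236.5 to 21891.2 against 31659.2 to 64360.8 in controls), 6 of 8 endothelial, 3 of 5 megakaryocyte, 3 of 8 granulocyte and 3 of 7 monocyte genes were lower as well, and 1 monocyte gene was higher. The column names of the table begin with 1 of 3 dates, whose meaning the study's text does not give. Mrc1Cre Xpr1fl/fl sample 5 and controls 1 to 3 carry the earliest, control 4 the middle one and Mrc1Cre Xpr1fl/fl samples 1 to 4 the latest. A date-adjusted fit, with the date as a term, therefore compares Mrc1Cre Xpr1fl/fl sample 5 with controls 1 to 3. It takes the spread from Mrc1Cre Xpr1fl/fl samples 1 to 4 and controls 1 to 3, and sample 5 is assumed to vary like them. Its values are given below for each named gene whose call it ended, and for each called gene named that it moved by over 1.5 times. In bulk samples, fewer cells of a type and less RNA per cell cannot be told apart. Nothing in the labels says that samples of a group came from separate embryos, so p-values measure the spread between these samples.

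Of the 10 genes, 3 rose in Mrc1Cre Xpr1fl/fl macrophages (*Bach1*, *Slc11a1* and *Flvcr1*), 3 fell (*Hmox1*, *Blvra* and *Ncoa4*), and *Slc40a1*, *Slc48a1*, *Fth1* and *Ftl1* did not pass the test (limma on log2[normalized count + 1], Benjamini-Hochberg over 13594 genes, threshold 0.05). Among all genes tested 43.1% were called, 21.5% as higher and 21.6% as lower. For 4 of the 10 genes all samples of one genotype lay above all of the other (*Bach1*, *Slc11a1*, *Flvcr1* and *Blvra*), against 34.1% of all genes. The median log2 fold change of the 10 genes was −0.11, where that of all genes tested was 0.00. Once the date was a term, *Bach1*, *Slc11a1* and *Flvcr1* were called as higher and no gene as lower in this fit, whose genotype difference rests on Mrc1Cre Xpr1fl/fl sample 5 alone, against 8.78% of all genes called in either direction.

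**Figure D1:**
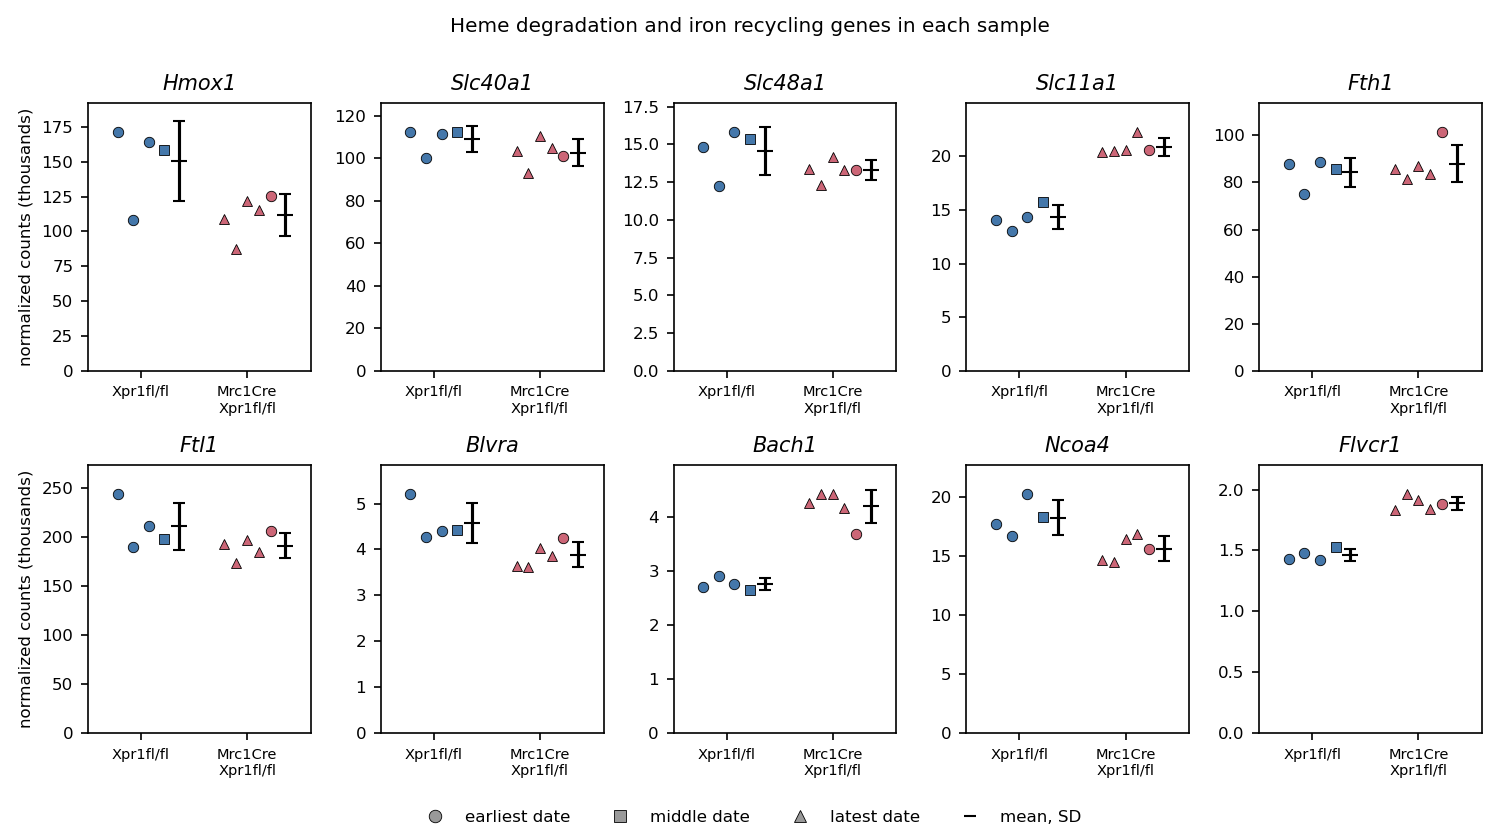
Normalized counts (divided by 1000, each axis from 0) of the 10 genes in every sample, with 4 Xpr1fl/fl samples in blue and 5 Mrc1Cre Xpr1fl/fl samples in red, in replicate order from left to right. The symbol gives the date in the column name, and the black mark with its bar gives the mean and SD. *Slc11a1*, *Bach1* and *Flvcr1* stand apart between the genotypes in every sample, and Xpr1fl/fl sample 2 lies low for *Hmox1*, *Slc40a1*, *Slc48a1* and *Fth1*.

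Of the 3 genes that release heme from the phagolysosome and break it down, *Hmox1* and *Blvra* fell and *Slc48a1* did not pass the test. *Slc48a1* (ENSMUSG00000081534, chr15:97676401-97690573 of GRCm39, plus strand) encodes HRG1, which moves heme from the phagolysosome into the cytosol. Its normalized counts in Mrc1Cre Xpr1fl/fl samples 1 to 5 were 13390.8, 12328.3, 14170.3, 13301.1 and 13290.4, and those in Xpr1fl/fl samples 1 to 4 were 14856.2, 12270.1, 15857.7 and 15331.3. Control 2 lay below every Mrc1Cre Xpr1fl/fl sample and the other controls lay above all of them, so the groups overlapped through 1 library. The log2 fold change was −0.13 (95% interval −0.29 to 0.04, limma adjusted p = 0.189). Without control 2 it was −0.21 and passed the test (adjusted p = 0.0139).

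*Hmox1* (ENSMUSG00000005413, chr8:75820241-75827217, plus strand), the inducible heme oxygenase that opens the heme ring and frees its iron, came after *Ftl1* among the 10 genes per kilobase of annotated exon. Its order against *Fth1* depends on the exon length taken for *Fth1*. Mrc1Cre Xpr1fl/fl samples 1 to 5 had 109070.8, 87360.3, 122025.4, 115012.0 and 125559.6 normalized counts of *Hmox1*. Xpr1fl/fl samples 1 to 4 had 171573.7, 108473.0, 163723.3 and 158270.6. Controls 1, 3 and 4 exceeded every Mrc1Cre Xpr1fl/fl sample, and control 2 lay within their range. *Hmox1* fell by 0.42 on the log2 scale (SE 0.14, limma adjusted p = 0.0359), from 150510.1 ± 28551.8 (SD, n = 4) to 111805.6 ± 15074.4 normalized counts (SD, n = 5). This call was the least stable of the 10 genes. It was lost in 6 of the 9 fits that each left out 1 library (all but those without Mrc1Cre Xpr1fl/fl sample 3, sample 5 or control 2), and over the 9 fits the log2 fold change was −0.57 to −0.33 (adjusted p = 0.00308 to 0.101). After adjustment for date the log2 fold change was −0.21 (limma adjusted p = 0.645), and Mrc1Cre Xpr1fl/fl sample 5, of the same date as controls 1 to 3, had the highest *Hmox1* and the highest erythroid sum of its genotype. Control 2 had both the lowest *Hmox1* and the lowest erythroid sum (403009.8) of the controls. The erythroid sum was not alone in this. Mrc1Cre Xpr1fl/fl sample 5 was also the highest of its genotype for the Kupffer cell, hepatocyte and granulocyte sums, but not for the macrophage, endothelial, monocyte and megakaryocyte sums. Control 2 was also the lowest control for every other marker sum except the granulocyte and monocyte sums. The part of these transcripts in the result was not tested.

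*Blvra* (ENSMUSG00000001999, chr2:126912556-126939017, plus strand) encodes biliverdin reductase A, which turns the biliverdin made by heme oxygenase into bilirubin. Its normalized counts were 3640.4, 3615.4, 4037.8, 3851.6 and 4256.9 in Mrc1Cre Xpr1fl/fl samples 1 to 5 and 5215.5, 4277.9, 4391.7 and 4423.1 in Xpr1fl/fl samples 1 to 4. No sample of either genotype reached the range of the other, although Mrc1Cre Xpr1fl/fl sample 5 and control 2 came close to each other. *Blvra* fell by 0.24 on the log2 scale (SE 0.07, limma adjusted p = 0.019) and stayed called without any 1 of the libraries. In the date-adjusted fit its log2 fold change was −0.11 (limma adjusted p = 0.577). The promoter window of *Blvra* holds the core letters of an antioxidant response element, the element through which NRF2 and BACH1 act. The match lies on the opposite strand, in a stretch that GENCODE also annotates as an exon of Gm75586. Its position is −49 from the RefSeq start, which differs from the GENCODE start of the gene given above. The stretch is shown on the strand of *Blvra*, with the match to GCNNNGTCA, the reverse of TGACNNNGC, in capitals.
Blvra, chr2:126912518-126912546, plus strand: cacgggaattGCTCGGTCAaggctccgcc

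The repressor of the pathway moved the other way. *Bach1* (ENSMUSG00000025612, chr16:87495782-87530234, plus strand) encodes the heme-binding repressor that with small MAF proteins holds down *Hmox1*, the ferritin genes and others until heme displaces it. *Bach1* was at 4252.1, 4429.6, 4428.1, 4171.3 and 3689.0 normalized counts in Mrc1Cre Xpr1fl/fl samples 1 to 5 and at 2700.8, 2904.9, 2758.7 and 2653.6 in Xpr1fl/fl samples 1 to 4. Every Mrc1Cre Xpr1fl/fl sample exceeded every control, and sample 5 was the lowest of its genotype. *Bach1* rose by a log2 fold change of 0.60 (SE 0.06, limma adjusted p = 3.78e-05), from 2754.5 ± 109.1 (SD, n = 4) to 4194.0 ± 303.8 normalized counts (SD, n = 5), which is 1.52-fold. After adjustment for date the log2 fold change was 0.40 (limma adjusted p = 0.0157). *Bach1* stayed called in every other setting tried, as did *Slc11a1* and *Flvcr1*.

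The iron transporters differed from each other. *Slc11a1* (ENSMUSG00000026177, chr1:74414303-74425448, plus strand) encodes NRAMP1, which moves iron and other divalent metals out of the phagosome. Its normalized counts were 20384.7, 20468.9, 20621.2, 22302.9 and 20577.6 in Mrc1Cre Xpr1fl/fl samples 1 to 5, and 14090.2, 13072.0, 14337.0 and 15777.7 in Xpr1fl/fl samples 1 to 4. The groups lay far apart, and 4 of the 5 Mrc1Cre Xpr1fl/fl samples were nearly the same. *Slc11a1* rose by a log2 fold change of 0.55 (SE 0.06, limma adjusted p = 5.39e-05), and by 0.57 in the date-adjusted fit (adjusted p = 0.00566).

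*Slc40a1* (ENSMUSG00000025993, chr1:45947211-45965683, minus strand) encodes ferroportin, the exporter through which recycled iron leaves the macrophage. Mrc1Cre Xpr1fl/fl samples 1 to 5 had 103141.1, 92916.6, 110159.7, 104916.6 and 101079.9 normalized counts of *Slc40a1*. Xpr1fl/fl samples 1 to 4 had 112483.7, 100131.5, 111194.2 and 112189.0. The groups overlapped through control 2, which lay below 4 of the 5 Mrc1Cre Xpr1fl/fl samples, while the other controls lay above all of them. The log2 fold change was −0.09 (95% interval −0.24 to 0.06, limma adjusted p = 0.325), and −0.09 after adjustment for date. Quantile normalization turned the direction, to 0.30 (adjusted p = 0.0104).

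*Flvcr1* (ENSMUSG00000066595, chr1:190733367-190758440, minus strand), the gene for a heme exporter of the plasma membrane that has also been described as a choline transporter, was the least abundant of the 10 genes. *Flvcr1* was at 1831.4, 1966.4, 1912.5, 1843.6 and 1885.2 normalized counts in Mrc1Cre Xpr1fl/fl samples 1 to 5 and at 1429.3, 1478.3, 1423.3 and 1530.1 in Xpr1fl/fl samples 1 to 4. The spread within each genotype was small and every Mrc1Cre Xpr1fl/fl sample exceeded every control. *Flvcr1* rose by a log2 fold change of 0.37 (SE 0.05, limma adjusted p = 0.000173), and by 0.38 in the date-adjusted fit (adjusted p = 0.0247). Upstream of *Flvcr1* is a match to the antioxidant response element core TGACNNNGC at position −151 from the RefSeq start, in an exon of A230020J21Rik. Another match, to TGCTGAGTC, the element of BACH1 and small MAF proteins, lies in an intron of Gm70623. Its position, −4974, counts from the GENCODE start of the gene, which differs from the RefSeq start. The stretches are printed on the strand of *Flvcr1*, with the match in capitals, because they hold letters of elements that BACH1 and NRF2 can bind. Binding was not measured, and the part of these matches in the rise of *Flvcr1* was not tested.
Flvcr1, chr1:190758520-190758548, minus strand: ttcacaagctTGACCCCGCccctcttctc
Flvcr1, chr1:190763396-190763424, minus strand: tttaactgccTGCTGAGTCatctctctga

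Iron that is not exported is held by ferritin, a shell of heavy and light chains. *Fth1* (ENSMUSG00000024661, chr19:9957911-9962462, plus strand) encodes the heavy chain, which oxidizes iron on entry. Its normalized counts were 85803.5, 81569.3, 86898.3, 83780.7 and 101605.6 in Mrc1Cre Xpr1fl/fl samples 1 to 5 and 87825.7, 75104.6, 88465.2 and 85854.7 in Xpr1fl/fl samples 1 to 4. The ranges overlapped, with Mrc1Cre Xpr1fl/fl sample 5 above and control 2 below all others. The log2 fold change was 0.06 (95% interval −0.12 to 0.24, limma adjusted p = 0.583). It was 0.28 after adjustment for date (adjusted p = 0.157), −0.02 after scaling to the 75th percentile and 0.29 after quantile normalization (adjusted p = 0.00472), so no direction can be given for *Fth1*.

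*Ftl1* (ENSMUSG00000050708, chr7:45107367-45109308, minus strand) encodes the light chain, on which the iron core forms. Mrc1Cre Xpr1fl/fl samples 1 to 5 had 193313.0, 173128.6, 197141.2, 184605.6 and 206475.2 normalized counts of *Ftl1*, and Xpr1fl/fl samples 1 to 4 had 244209.5, 189959.0, 211597.2 and 197869.9. Control 1 stood highest and the other controls reached into or just above the range of the Mrc1Cre Xpr1fl/fl samples. The log2 fold change was −0.14 (95% interval −0.34 to 0.06, limma adjusted p = 0.241). The table also holds 3 rows for copies of *Ftl1* (*Ftl1-ps1*, *Ftl1-ps2* and *Ftl2-ps*) that could share its reads, with 0.311% to 0.519% of the normalized counts of *Ftl1*, and adding them left the log2 fold change at −0.14.

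Ferritin mRNA is bound near its 5′ end by iron regulatory proteins when iron is short, which blocks translation, and RNA-seq does not see this step. The stem-loop that they bind was found in both ferritin genes by its loop letters CAGTG with a C 6 bases before them and 5 paired bases on each side of the 6-base loop. It is the reason for showing the sites, in which capitals mark that C and the loop letters. The Ftl1 site lies in a 5′ UTR exon of *Ftl1* and also of Gm10252, and the Fth1 site in one of *Fth1* and of Gm36913.
Ftl1, chr7:45109206-45109231, minus strand: gtcttgCttcaaCAGTGtttgaacgg
Fth1, chr19:9960096-9960121, plus strand: ttcctgCttcaaCAGTGcttgaacgg
The loop begins 90 bases from the start of the canonical *Ftl1* transcript and 99 bases from that of *Fth1*. The letters alone occur in the 5′ UTR of 10.3% of 20974 genes, *Blvra*, *Bach1* and *Ncoa4* included, and the letters with the paired stem in 0.114% (24 genes). Farther upstream, each ferritin gene has 1 match to the BACH1 and small MAF element TGCTGAGTC, at position −1102 from the annotated start of *Ftl1* on the opposite strand (GACTCAGCA, in an exon of Gm73429) and at −1908 from that of *Fth1* (in an intron of Gm36913). These positions count from the start of the gene, which for *Fth1* (chr19:9957911) lies before that of the canonical transcript. The *Fth1* match is therefore farther than 1908 bases from the canonical transcript.
Ftl1, chr7:45110392-45110420, minus strand: agctcagcgtGACTCAGCAgaactggcct
Fth1, chr19:9955993-9956021, plus strand: aggagcagaaTGCTGAGTCacggtggaac

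*Ncoa4* (ENSMUSG00000056234, chr14:31881822-31902234, plus strand) encodes the receptor that carries ferritin to the lysosome for degradation. *Ncoa4* was at 14668.6, 14446.8, 16449.6, 16844.3 and 15581.4 normalized counts in Mrc1Cre Xpr1fl/fl samples 1 to 5 and at 17720.6, 16663.2, 20257.3 and 18270.1 in Xpr1fl/fl samples 1 to 4. The groups overlapped only through control 2, which lay below Mrc1Cre Xpr1fl/fl sample 4. *Ncoa4* fell by 0.22 on the log2 scale (SE 0.07, limma adjusted p = 0.021). The call was lost without Mrc1Cre Xpr1fl/fl sample 1 (adjusted p = 0.0521), without sample 2 (0.0516), without control 3 (0.0688) and in the date-adjusted fit, which left the log2 fold change at −0.22 (limma adjusted p = 0.298). Of the 3 RefSeq starts listed for *Ncoa4*, 1 has a match to TGACNNNGC at position −44 from it, in an exon of the gene.
Ncoa4, chr14:31887692-31887720, plus strand: aggcggggcgTGACCTGGCcggtagggta

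**Figure D2:**
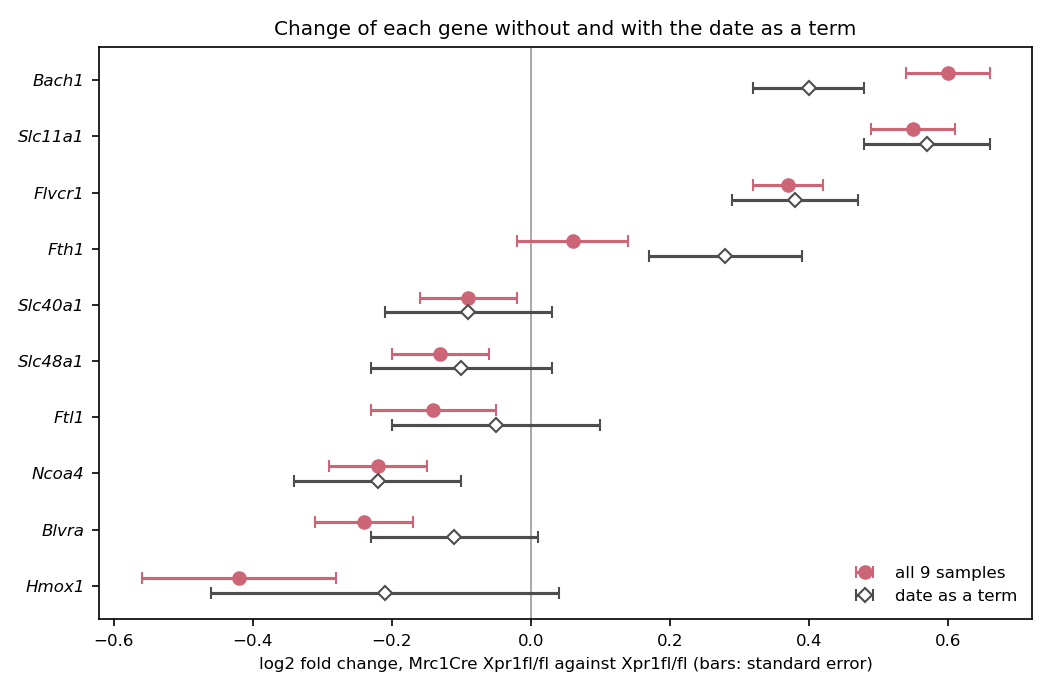
Log2 fold change of each gene in Mrc1Cre Xpr1fl/fl against Xpr1fl/fl macrophages, from all 9 samples (filled circles) and after adjustment for date (open diamonds), with bars for the standard error. *Slc11a1* and *Flvcr1* keep their values, *Bach1* moves from 0.60 to 0.40 and *Hmox1* from −0.42 to −0.21.

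Beyond genotype, the genes shared a pattern among libraries. Control 2 was the lowest of the 4 controls for 8 of the 10 genes (*Slc48a1*, *Hmox1*, *Blvra*, *Slc11a1*, *Slc40a1*, *Fth1*, *Ftl1* and *Ncoa4*), where it was the lowest for 24.9% of all genes tested. Mrc1Cre Xpr1fl/fl sample 2 was the lowest of its genotype for 7 of them (the same list without *Slc11a1*), where it was the lowest for 22.7% of all genes. *Bach1* was highest in these libraries within its genotype, by little in Mrc1Cre Xpr1fl/fl samples (4429.6 against 4428.1 in sample 3). Several marker sums were also lowest in control 2 and in Mrc1Cre Xpr1fl/fl sample 2 within their genotypes. These were the erythroid (403009.8 and 92066.5), Kupffer cell (107404.8 and 42768.8), hepatocyte (31659.2 and 15236.5) and megakaryocyte sums (2163.9 and 718.7). The macrophage and endothelial sums were lowest in control 2 only, the granulocyte sum in Mrc1Cre Xpr1fl/fl sample 2 only, and the monocyte sum in neither. The part of these transcripts in the values was not tested. Per sample, the 10 genes together made up 1.75% to 2.12% of all normalized counts in Mrc1Cre Xpr1fl/fl samples and 1.95% to 2.38% in controls, and the ferritin chains 0.903% to 1.1% and 0.984% to 1.17%. These shares overlap between the genotypes.

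Levels between genes can be compared per length only. In normalized counts per kilobase of exon, the order in controls was *Ftl1* (157277.3 ± 17846.9, SD, n = 4), *Hmox1* (85565.7 ± 16231.8), *Fth1* (23952.4 ± 1772.3), *Slc40a1* (11566.2 ± 630.1), *Slc48a1* (4992.8 ± 545.4), *Slc11a1* (3595.1 ± 280.2), *Ncoa4* (1815.2 ± 150.2), *Blvra* (1322.5 ± 124.3), *Bach1* (378.6 ± 15.0) and *Flvcr1* (186.3 ± 6.3). The ranges of no neighbors in this order overlapped among the 4 controls. *Ftl1* was the 5th and *Hmox1* the 10th most abundant gene of the whole table on this scale, *Fth1* the 33rd and *Slc40a1* the 73rd, while *Bach1* ranked 2709th. In Mrc1Cre Xpr1fl/fl samples *Slc11a1* (5240.0 ± 202.3 per kilobase, SD, n = 5) passed *Slc48a1* (4553.5 ± 223.9), and the ranges of these genes (5117.9 to 5599.5 and 4222.0 to 4852.8) did not overlap. The exon length is that of the union of all annotated exons of a gene, so that genes with long rarely used exons are set too low. For *Fth1* this union is 3520 bases, and the gene begins at chr19:9957911. The stem-loop 99 bases into its canonical transcript lies at chr19:9960096-9960121, so annotated exons before that transcript add to the length. The place of *Fth1* below *Hmox1* is therefore not settled by these values.

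**Figure D3:**
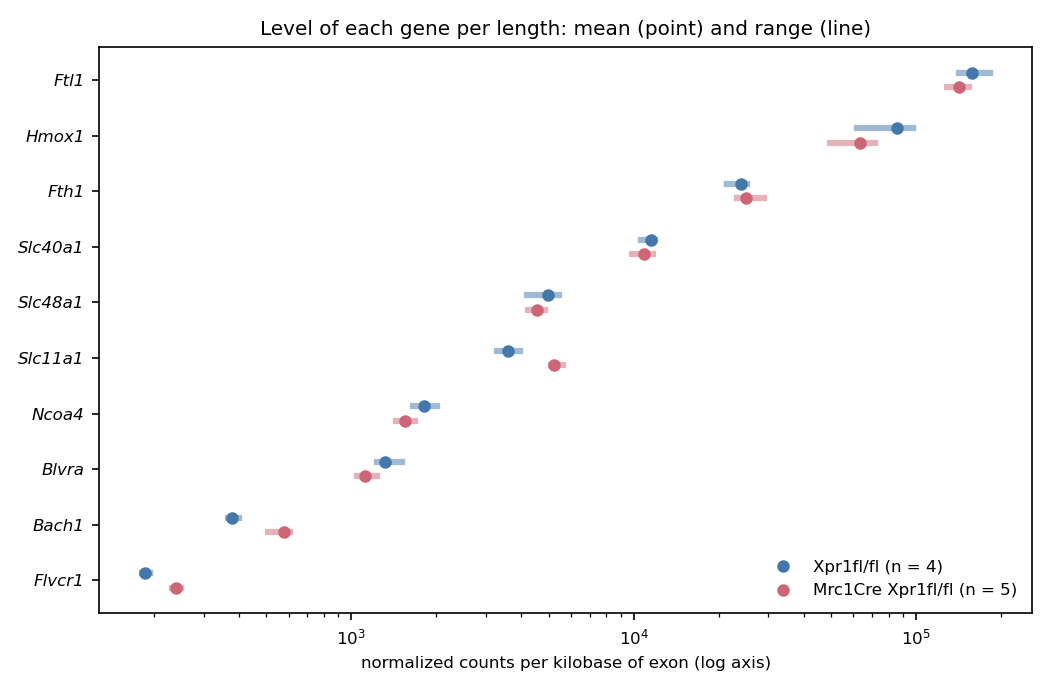
Normalized counts per kilobase of exon (log axis) of the 10 genes, with the mean as a point and the range over samples as a line, for 4 Xpr1fl/fl samples (blue) and 5 Mrc1Cre Xpr1fl/fl samples (red). The levels span from 186.3 for *Flvcr1* to 157277.3 for *Ftl1* in controls, and *Slc11a1* and *Slc48a1* change places in Mrc1Cre Xpr1fl/fl samples.

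Ratios between genes within a sample do not depend on a scaling factor common to all genes of a sample, apart from the pseudocount. Quantile normalization is not such a factor, and the ratios were not tested after it. After it the log2 fold changes were 0.30 for *Flvcr1* and for *Slc40a1*, 0.29 for *Fth1*, −0.08 for *Ftl1* and −0.28 for *Ncoa4*. Of 6 ratios, 3 differed between the genotypes in two-sided exact permutation tests over the samples, with Benjamini-Hochberg adjustment over the 6. The ratio of *Fth1* to *Ftl1* was 0.444, 0.471, 0.441, 0.454 and 0.492 in Mrc1Cre Xpr1fl/fl samples 1 to 5 and 0.36, 0.395, 0.418 and 0.434 in Xpr1fl/fl samples 1 to 4. The heavy chain thus took a larger part of ferritin transcripts in every Mrc1Cre Xpr1fl/fl sample, by 0.20 on the log2 scale (exact permutation p = 0.00794, the smallest that 5 against 4 samples allow, adjusted p = 0.0238). The ratio of *Ncoa4* to *Fth1*, the ferritin receptor against its cargo, was 0.171, 0.177, 0.189, 0.201 and 0.153 against 0.202, 0.222, 0.229 and 0.213 in controls. It was lower in every Mrc1Cre Xpr1fl/fl sample, with a log2 difference of −0.28 (exact permutation p = 0.0159, adjusted p = 0.0317), although sample 4 and control 1 differed by little.

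The ratio of the heme exporter to the iron exporter, *Flvcr1* to *Slc40a1*, was 0.0178, 0.0212, 0.0174, 0.0176 and 0.0187 in Mrc1Cre Xpr1fl/fl samples 1 to 5 and 0.0127, 0.0148, 0.0128 and 0.0136 in controls 1 to 4. Again the groups did not overlap, and the log2 difference was 0.46 (exact permutation p = 0.00794, adjusted p = 0.0238). Within the earliest date, the ratios of Mrc1Cre Xpr1fl/fl sample 5 lay outside those of controls 1 to 3 in the same direction for all 3 pairs, a difference that was not tested. Each of the 3 ratios lost its call in 7 of the 9 fits that left out 1 library, all but those without Mrc1Cre Xpr1fl/fl sample 5 or control 2 (exact permutation adjusted p = 0.0536 to 0.0714 where lost). Between *Hmox1* and other genes no ratio passed. *Hmox1* to *Blvra* was 28.7 ± 2.6 (SD, n = 5) against 32.8 ± 5.3 (SD, n = 4, exact permutation adjusted p = 0.167), *Hmox1* to *Slc40a1* was 1.09 ± 0.11 against 1.37 ± 0.2 (exact permutation adjusted p = 0.0762), and *Slc48a1* to *Hmox1* was 0.12 ± 0.013 against 0.0984 ± 0.011 (exact permutation adjusted p = 0.0595). Each of these overlapped through control 2, and without it all of them passed (exact permutation adjusted p = 0.0214). *Slc48a1* to *Hmox1* also passed without Mrc1Cre Xpr1fl/fl sample 5 (exact permutation adjusted p = 0.0429).

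**Figure D4:**
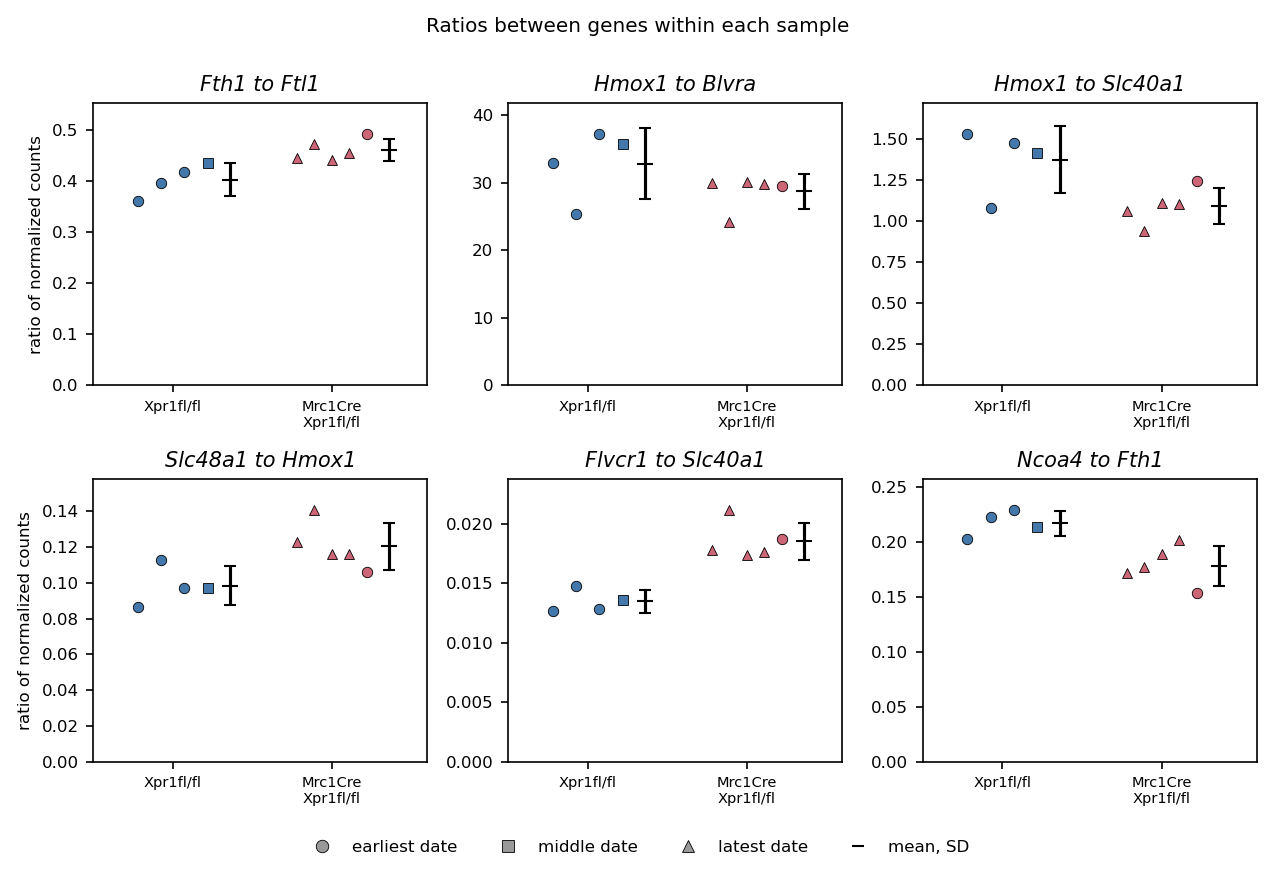
Ratio of normalized counts for 6 pairs of genes in every sample (each axis from 0), with Xpr1fl/fl samples in blue and Mrc1Cre Xpr1fl/fl samples in red, the symbol giving the date and the black mark the mean and SD. *Fth1* to *Ftl1*, *Flvcr1* to *Slc40a1* and *Ncoa4* to *Fth1* separate the genotypes, and the ratios with *Hmox1* overlap through Xpr1fl/fl sample 2.

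Other genes of heme and iron handling were taken from a list of 52, of which 46 were tested (*Lrp2*, *Scara5*, *Ftmt*, *Hamp*, *Hamp2* and *Bmp6* have no row). Against 21.5% and 21.6% of all genes tested, the background for each smaller list below too, 6 of the 46 rose and 17 fell. Their median log2 fold change was −0.07. In the date-adjusted fit 4 rose and 6 fell. In the uptake of heme and hemoglobin, 4 of 5 genes fell and none rose, and 1 fell in the date-adjusted fit. *Cd163*, the receptor for complexes of hemoglobin and haptoglobin, was at 33.6 to 48.3 normalized counts in Mrc1Cre Xpr1fl/fl samples and 230.1 to 572.6 in controls, a log2 fold change of −3.12 (SE 0.23, limma adjusted p = 8.34e-06), and −3.21 after adjustment for date. *Hpx* (−1.06) and *Hp* (−1.79), which encode hemopexin and haptoglobin, plasma proteins made mainly by hepatocytes, fell as well, and neither was called in the date-adjusted fit (*Hpx* −0.79, limma adjusted p = 0.0784, and *Hp* −1.05, adjusted p = 0.139). All 8 hepatocyte marker genes fell in the same samples, and *Hpx* was highest in control 4 (334.8), which had the highest hepatocyte sum. *Hp* was lowest in that control (279.3, against 619.1, 471.3 and 1174.7 normalized counts in controls 1 to 3) and ran in the order of the granulocyte sum, which was 32698.9, 19512.8, 54028.2 and 8770.9 in controls 1 to 4. Mrc1Cre Xpr1fl/fl sample 5 was the highest of its genotype for *Hp* (338.5) and for the granulocyte sum (18147.9). The part of these cells in the values was not tested. *Lrp1*, the receptor for heme bound to hemopexin, was at −0.02 (adjusted p = 0.844). Beside *Blvra*, the other biliverdin reductase gene *Blvrb*, which is abundant in erythroid cells, fell by 0.26 on the log2 scale (limma adjusted p = 0.0124), and was at −0.06 in the date-adjusted fit (adjusted p = 0.77). *Hmox2*, the constitutive heme oxygenase, was at −0.11 (adjusted p = 0.153).

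Of 4 further heme transport genes 2 fell, with *Abcg2*, an exporter of porphyrins and heme, at −0.65 (limma adjusted p = 0.000377). In iron import and reduction, 4 of 8 genes fell and 1 rose. *Slc39a8*, a transporter for zinc, manganese and iron, was at 982.0 to 1187.7 normalized counts in Mrc1Cre Xpr1fl/fl samples and at 1792.5 to 1972.4 in controls (log2 fold change −0.74, limma adjusted p = 2.16e-05, and −0.73 after adjustment for date). Its close relative *Slc39a14* moved the other way, at 358.8 to 479.7 against 224.7 to 312.8 (log2 fold change 0.64, adjusted p = 0.00128, and 0.87 in the date-adjusted fit). *Tfrc* (−0.45) and *Tfr2* (−1.65), the transferrin receptors, fell too, and both are expressed by erythroid precursors. Neither was called in the date-adjusted fit, with *Tfrc* at −0.29 (limma adjusted p = 0.339) and *Tfr2* at −0.84 (adjusted p = 0.121). Erythroid precursors also express *Slc25a37* (−1.62) and *Abcb10* (−1.18), which encode the iron importer mitoferrin-1 and a transporter of the same mitochondrial membrane needed for heme synthesis and, with the iron-sulfur scaffold *Iscu* (−0.29), were the 3 of 6 mitochondrial iron genes that fell. After adjustment for date *Slc25a37* was at −0.84 and *Abcb10* at −0.75, both still called (limma adjusted p = 0.0383 and 0.0328), and *Iscu* was not (−0.21, adjusted p = 0.207). All 14 erythroid marker genes fell in the same samples, and their part in the values of these genes was not tested.

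Of 8 iron sensing genes, 3 fell and 1 rose. *Hfe*, which joins a transferrin receptor to signal the iron load, was at 6423.9 to 7798.4 normalized counts against 9136.8 to 10050.5 in controls (log2 fold change −0.44, limma adjusted p = 0.000213). *Smad7*, an inhibitor of BMP signaling, fell by 0.41 (adjusted p = 0.0104) and was not called in the date-adjusted fit (−0.43, adjusted p = 0.176). *Bmpr2*, a BMP receptor, rose by 0.50 (adjusted p = 0.00738), but its level in Mrc1Cre Xpr1fl/fl sample 5 (1938.2) was that of controls (1751.0 to 2049.0), and after adjustment for date its log2 fold change was 0.00. The iron regulatory protein genes *Aco1* (0.09, adjusted p = 0.122) and *Ireb2* (0.07, adjusted p = 0.489) did not pass the test. Among 8 transcription factor genes of the pathway 4 rose and none fell, with 2 called in the date-adjusted fit. *Spic*, which drives the red pulp macrophage program of iron recycling, was at 9925.7 to 12440.8 normalized counts against 8618.0 to 10287.6 (log2 fold change 0.24, limma adjusted p = 0.0226, and 0.42 after adjustment for date, adjusted p = 0.0464). *Nr1h3*, the gene for LXRα, stood at 9511.8 to 10622.4 against 7360.4 to 8282.7 (0.37, adjusted p = 0.000219). *Nfe2l2*, which encodes NRF2, rose by 0.29 (adjusted p = 0.00108) and *Keap1*, the adaptor that marks NRF2 for degradation, by 0.25 (adjusted p = 0.00824). The date-adjusted fit called neither, with *Nfe2l2* at 0.20 (limma adjusted p = 0.164) and *Keap1* at 0.34 (adjusted p = 0.0783).

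Genes known to be held down by BACH1 or driven by NRF2 were listed with the 10 genes above left out. *Hmox1*, *Blvra* and the ferritin genes are therefore not among them. Most genes of this list rose. Of 18, 14 rose, 1 fell (*Blvrb*) and 3 did not pass (21.5% and 21.6% of all genes tested). For 13 of the 18 the genotypes did not overlap, against 34.1% of all genes. The median log2 fold change was 0.34. *Slc7a11*, the cystine importer, was at 319.4 to 642.7 normalized counts in Mrc1Cre Xpr1fl/fl samples and 13.6 to 36.6 in controls (log2 fold change 4.56, SE 0.29, limma adjusted p = 4.66e-06). Next came *Me1*, an enzyme that makes NADPH, at 0.73 (adjusted p = 0.00211) and *Abcc1*, an exporter of glutathione conjugates, at 0.73 (adjusted p = 8.77e-05). With the date as a term *Me1* was not called (0.82, limma adjusted p = 0.0748) and *Abcc1* was (0.59, adjusted p = 0.0209). *Nqo1* (−0.68, adjusted p = 0.0586), *Gclc* (−0.05, adjusted p = 0.59) and *Cat* (−0.04, adjusted p = 0.802) did not pass. In the date-adjusted fit 6 of the 18 rose and none fell. *Hmox1* and *Blvra* fell and the ferritin genes did not pass the test in samples in which most genes of this list rose.

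**Figure D5:**
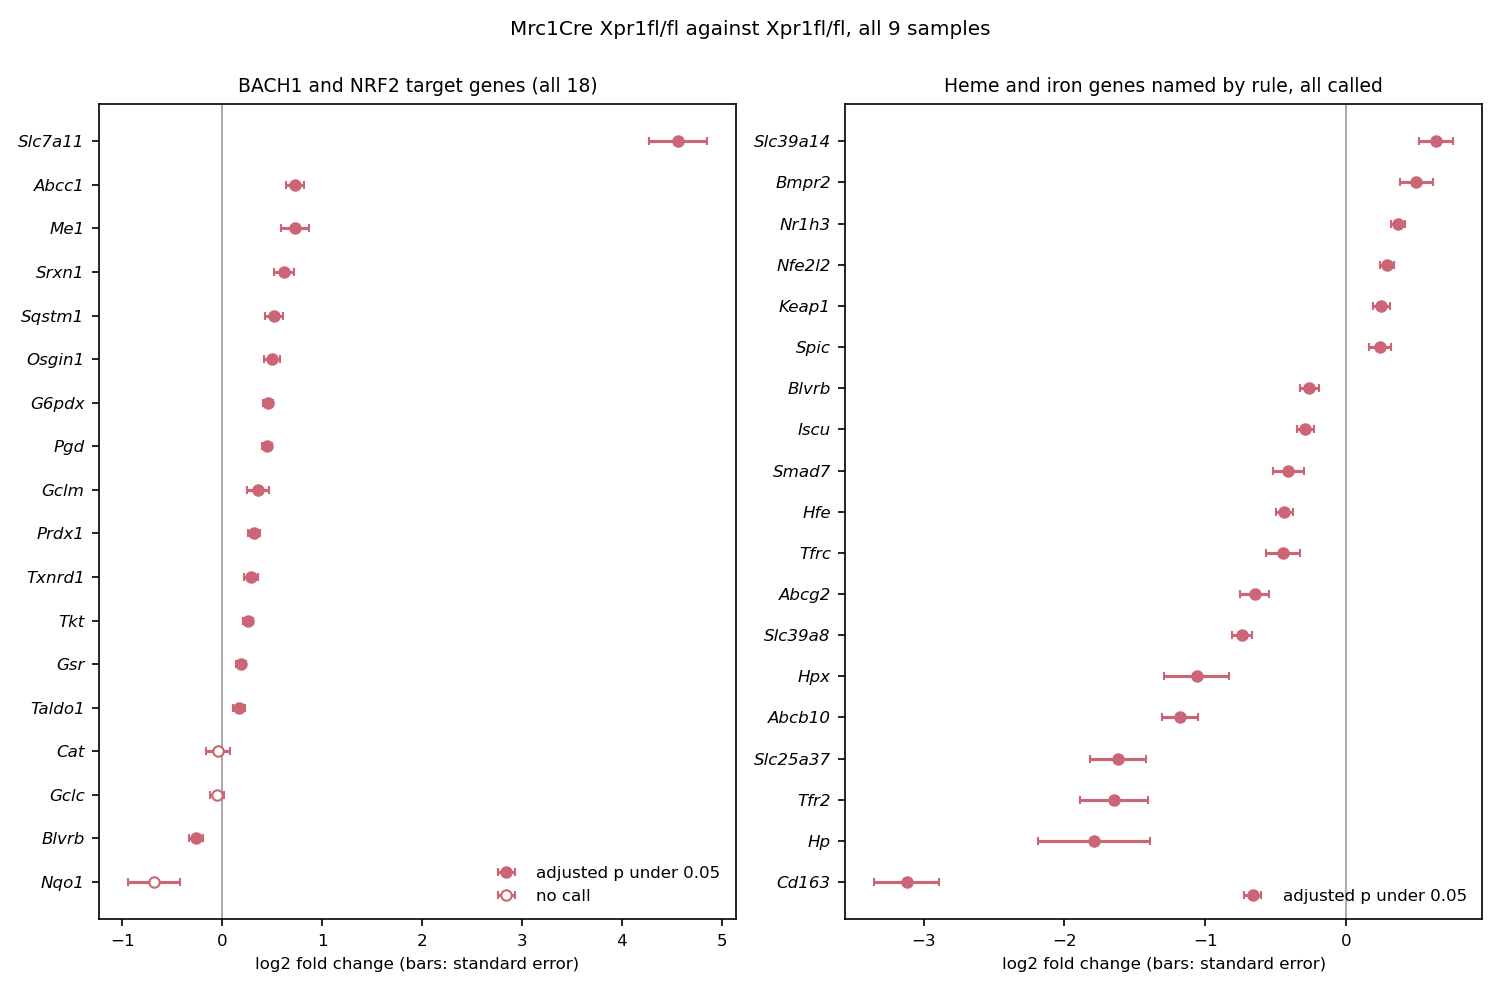
Log2 fold change in Mrc1Cre Xpr1fl/fl against Xpr1fl/fl macrophages with its standard error, for the 18 BACH1 and NRF2 target genes (left, filled circles for adjusted p under 0.05) and for 19 heme and iron genes chosen by rule among those that passed the test (right). *Slc7a11* at 4.56 and *Cd163* at −3.12 lie farthest from 0.

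The matches printed above were read against the same search over all genes. RefSeq promoter windows, from 250 bases before to 50 bases after an annotated start, were given for 7 of the 10 genes (10 windows), and none for *Hmox1*, *Slc40a1* and *Slc48a1*. TGACNNNGC on either strand occurred in 3 of the 10 windows (*Flvcr1*, *Blvra* and *Ncoa4*) and in 12.4% of all 32851 windows. TGCTGAGTC and the shorter TGAGTCA occurred in none of the 10, and in 0.423% and 5.2% of all windows. In the 10 kb before the annotated start of the gene, TGCTGAGTC on either strand occurred once each for *Fth1*, *Ftl1*, *Ncoa4* and *Flvcr1*, 4 of the 7, and at least once for 14.4% of 13566 genes. With an A after it, TGCTGAGTC also reads TGAGTCA and, on the other strand, TGACNNNGC, so these searches overlap. A match is a run of letters, not a site shown to be bound.

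Across the 9 samples, the genes whose log2 level was most like that of *Hmox1* were *Bhlhe40* (Pearson's r = 0.974), *Dnase2a* (r = 0.970) and *Ctsd* (r = 0.967), out of 11399 genes with at least 50 normalized counts on average. *Dnase2a* encodes a lysosomal DNase and *Ctsd* the lysosomal protease cathepsin D. Mean normalized counts in Mrc1Cre Xpr1fl/fl samples and in controls were 1271.7 and 1666.2 for *Bhlhe40* and 5438.2 and 5973.4 for *Dnase2a*. Those of *Ctsd* were 120508.5 and 146236.7. The genes most like *Slc40a1* were *Nceh1* (r = 0.954), *Tmem141* (r = 0.942) and *Xpa* (r = 0.940). All points share the libraries, the scaling and the 2 genotypes, so these are descriptions of likeness in 9 libraries.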

How the data were processed

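FL macrophages were sorted from E15.5 livers and libraries were made from 45 ng of total RNA. Per the study's methods, the authors used FastQC for read quality, salmon with a GRCm39 index for transcript counts, tximport for the import and DESeq2 for normalization (versions not given in the sources used here). What was deposited is a signal, 1 value per gene and sample that is never negative and no whole read number. These normalized counts have totals per sample (26942921 to 28309443) that follow from the normalization, so depth is unknown. Columns were matched to samples by name.

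Symbols, coordinates and exon lengths came from GENCODE release 39 for mouse. A gene was tested if 4 or more samples had 10 or more normalized counts of it. The log2 of the value plus a pseudocount of 1, a scale that understates changes of low genes, was fitted in limma 3.58.1 under R 4.3.3 by lmFit and by eBayes with a trend, with Benjamini-Hochberg adjustment over all genes tested. In simulated data for this comparison (13436 genes tested), 48 of 67, 60 of 67 and 66 of 66 genes changed by 0.5, 1 and 2 on the log2 scale were recovered. Only these genes were changed there, with noise independent between genes, where 43.1% of genes were called in the data. Recovery in the data can therefore differ, and changes below 0.5 were not simulated. Promoter windows came from RefSeq (GRCm38.p6) and were placed on GRCm39 by exact match. Python 3.11.15 and matplotlib 3.10.9 were used.

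The 10 genes, lists and tests were chosen with earlier results of these data known. Genes named beside them were the 3 largest rises and falls of each list with at least 50 normalized counts on average, *Spic*, *Nr1h3* and *Cd163*, and the 3 genes most like *Hmox1* and *Slc40a1*. *Lrp1*, *Hmox2*, *Aco1*, *Ireb2*, *Nqo1*, *Gclc*, *Cat* and the stem-loop search in whole 5′ UTRs were chosen after their values were seen. Alternatives were pseudocounts of 0.5 and 10, no filter or one of 50, array weights, robust fitting or no trend in limma, quantile normalization, a common 75th percentile, the date or the replicate number as a term, the copies of *Ftl1* added, and leaving out each sample in turn. Correlations between samples over all genes were 0.947 to 0.986, and no sample was treated as a repeat of another.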

Additional observations from a re-analysis of the deposited data

Results flagged for a closer look

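Within-genotype values were looked at in 80 groups of 4 or 5 samples, over the genes and ratios named above, and 9 groups held a sample set far apart from the others by Dixon's test, where chance gives about 1 in 20 (4.0). *Slc40a1* was 100131.5 normalized counts in Xpr1fl/fl sample 2 and 111194.2 to 112483.7 in the other controls. *Slc11a1* was 22302.9 in Mrc1Cre Xpr1fl/fl sample 4 and 20384.7 to 20621.2 in the others. *Fth1* was 101605.6 in Mrc1Cre Xpr1fl/fl sample 5 and 81569.3 to 86898.3 in the others, and *Blvra* was 5215.5 in Xpr1fl/fl sample 1 and 4277.9 to 4423.1 in the others. The ratio of *Hmox1* to *Blvra* was 24.2 in Mrc1Cre Xpr1fl/fl sample 2 and 29.5 to 30.2 in the others.

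Among the other genes, *Bmpr2* was 1938.2 normalized counts in Mrc1Cre Xpr1fl/fl sample 5 against 2920.7 to 3098.9, and *Hp* was 338.5 in the same sample, which had the highest granulocyte sum of its genotype, against 105.5 to 154.8. Xpr1fl/fl sample 4 stood apart for *Hpx* (334.8 against 149.6 to 166.5) and *Tfrc* (19327.2 against 14846.5 to 15204.2), and had the highest hepatocyte sum of all samples (64360.8).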

How the results depend on the processing

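*Bach1*, *Slc11a1* and *Flvcr1* stayed called as higher in every alternative, the fits that each left out 1 sample included, although the fit with the date rests on 1 sample of one genotype. With the date as a term the log2 fold changes of *Hmox1* (−0.21), *Blvra* (−0.11) and *Ncoa4* (−0.22) lost their calls, so that 0 of the 10 genes were lower, and 6 other heme and iron genes were lower, 6 of the BACH1 and NRF2 targets higher and 0 lower. *Hmox1* was also lost without trend (−0.42, adjusted p = 0.0623) and after quantile normalization (−0.13), which turned *Slc40a1* to 0.30, called *Fth1* at 0.29 and *Slc48a1* at −0.22, and gave 5 of the 10 genes as higher. Scaling to the 75th percentile turned *Fth1* to −0.02, called *Slc48a1* at −0.21, and over all genes gave 1999 higher and 3706 lower (35% higher, where the deposited scaling gave 49.9%). Of the BACH1 and NRF2 targets 2 were lower with that scaling, with a pseudocount of 10 and with the replicate block. The number of targets called as higher was 12 with that scaling and 11 after quantile normalization, where the main fit gave 14. The causes were not tested. Over the fits that each left out 1 sample, the log2 fold change of *Hmox1* was −0.57 to −0.33, of *Slc48a1* −0.21 to −0.08 and of *Ncoa4* −0.27 to −0.17, the number of the 10 genes called as lower was 1 to 4, and that of the targets 1 to 2. The log2 differences of the ratios were 0.15 to 0.24 (*Fth1* to *Ftl1*), −0.30 to −0.12 (*Hmox1* to *Blvra*), −0.44 to −0.27 (*Hmox1* to *Slc40a1*), 0.23 to 0.36 (*Slc48a1* to *Hmox1*), 0.41 to 0.50 (*Flvcr1* to *Slc40a1*) and −0.33 to −0.23 (*Ncoa4* to *Fth1*). The ratios were not tested after quantile normalization, which can change them. The 3 ratios called with all samples each lost their call in 7 of these 9 fits, and the ratios with *Hmox1* gained one without control 2. The smallest exact permutation p that fewer samples allow (0.0286 or 0.0179) limits these fits, so the losses say little about stability. Samples with the same replicate number did not deviate together (correlations −0.03, 0.15, −0.01 and −0.03), so the numbers do not pair the samples. The replicate block, in which Mrc1Cre Xpr1fl/fl sample 5 has no partner, called 6226 genes against 5865, gave *Hmox1* at −0.46 (adjusted p = 0.0014) and changed no call among the 10 genes. Sequencing depth is unknown, no raw counts were tested, and 9 libraries and 1 shared date between the genotypes limit what these fits can separate.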
